A study of Homo sapiens with 8 samples.

Results

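The 32 p53 pathway target genes described here were followed through 2 knockdowns of the transcription factor ETS1. The members were chosen by symbol from a list of established p53 target genes, with earlier results of these libraries in view, because one of them, RPS27L, rose after ETS1 siRNA. All 32 were found by symbol among the 56638 symbols of the deposited tables. The cells were SCC25, an established line of human head and neck squamous cell carcinoma (HNSCC) from the tongue. In the first experiment, cells were transfected with a siGENOME pool of ETS1 siRNA (ETS1 siRNA, n = 2) or with a non-targeting pool (siRNA control, n = 2). In the second, cells carried a lentiviral hairpin, either a control (shCON, n = 2) or ETS1 hairpin number 3 (shETS1, n = 2), and were selected with puromycin. Each hairpin group was a selected population with 1 hairpin sequence, so an effect of that sequence and an effect of ETS1 loss cannot be told apart. The siRNA experiment likewise used 1 ETS1 pool and 1 control pool, so effects of the reagent and of ETS1 loss cannot be told apart there either. Hours or days between transfection or infection and harvest are not given in the sources used here.

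The protein p53 is a transcription factor that binds DNA as a tetramer and is held low in unstressed cells by MDM2, a ubiquitin ligase that is itself a p53 target, and by the MDM2 relative MDM4. When DNA damage or other stress stabilises p53, its targets slow the cell cycle, aid repair of DNA, restrain growth and metabolism, or lead to cell death. In squamous epithelium a relative, p63, is abundant and binds many of the same DNA elements, and PERP, a desmosome protein, is a target that the 2 factors share. ETS1 belongs to a family of factors that bind a GGAA core.

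To place the genes beside the sequence they are known for, RefSeq promoter windows (GRCh38.p14, from 250 bases before to 50 bases after an annotated start) were searched for the p53 consensus, a pair of decamers, each of 10 bases. At most 2 mismatches in all and a spacer of at most 1 base were allowed, and the C and G at the core of each decamer had to be present. A window was at hand for 26 members, and 4 of them held such an element (15.4%), against 184 of 27305 genes overall (0.674%). The list was made of known p53 targets, so this share is a description of the list. The 4 elements are shown in capitals with 4 flanking bases, on the sense strand of the gene, because these are the members in which the pathway's own motif lies at an annotated start.
DDB2, chr11:47214975-47215003, no mismatch and a spacer of 1 base: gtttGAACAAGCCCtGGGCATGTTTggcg
MDM2, chr12:68808919-68808946, 2 mismatches: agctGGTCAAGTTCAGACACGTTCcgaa
FAS, chr10:88991305-88991332, 2 mismatches: tcctGGACAAGCCCTGACAAGCCAagcc
AEN, chr15:88621302-88621329, 2 mismatches: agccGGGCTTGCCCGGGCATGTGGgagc
The ETS core CCGGAAGT, searched on both strands (ACTTCCGG on the other), lay in the windows of 2 members (7.69%), against 1351 of 27305 genes (4.95%). Both are shown in the sense of the gene with the core in capitals, since the factor lowered here belongs to that family and RPS27L is the gene from which the question arose.
RPS27L, chr15:63157478-63157507, minus strand: cagcttctatcCCGGAAGTtgatgccgagc
MDM4, chr1:204516378-204516407, plus strand: cgtgtgggaggCCGGAAGTtgcggcttcat
A match of letters is not a bound site, and binding was not analysed here.

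RNA was sequenced as single reads of 50 bases and counted per gene. The libraries held 15954616 to 25953213 counts each. Levels below are counts per 1000000 (CPM) on library sizes scaled within each experiment by the TMM method. A change is a log2 fold change from edgeR's quasi-likelihood test, and a gene is called where its p, adjusted by Benjamini and Hochberg, was under 0.1. The experiments were tested apart, because short structural RNAs took at most 0.00339% of counts in the siRNA libraries and 5.61% to 12.3% in the shRNA libraries, so levels are not compared between them. ETS1 itself stood at 288.5 and 248 CPM in the siRNA control and at 17.4 and 13.2 CPM in its knockdown (log2 fold change -4.13, SE 0.19, edgeR adjusted p = 0.00017). It stood at 82.3 and 72.1 CPM in shCON and at 9.76 and 11.1 CPM in shETS1 (log2 fold change -2.89, SE 0.10, edgeR adjusted p = 3.8e-13). The labels of all 8 libraries thus matched the level of the targeted gene. Squamous markers (keratins, DSG3 and TP63) were abundant in every library, with a summed level of 14200 to 25800 CPM. Immune markers summed to 1.16 to 4.01 CPM and endothelial markers to 0.0793 to 0.756 CPM.

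After ETS1 siRNA, 5 p53 targets fell, 1 rose and the other 25 were not called. The falls were FAS, CCNG1, MDM2, ZMAT3 and TNFRSF10A, and the rise was DDB2. These counts leave out RPS27L, whose rise led to the choice of the list and is given as values only. Thus 6 of the 31 other members were called, beside 3.41% of all 14742 genes tested, with 5 members lower beside 2.27% of genes and 1 member higher beside 1.13%. The median log2 fold change of the 31 was -0.0907, against 0.00182 over all genes tested. Of the 31, 8 had an unadjusted p under 0.05, beside 2721 of all 14742 genes tested. The groups did not overlap for 64.5% of the members, 7 higher and 13 lower, and for 51.9% of all genes. The summed squamous markers stood at 14200 and 18800 CPM in the siRNA control and at 25500 and 21500 CPM after ETS1 siRNA, and their part in these values was not tested.

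RPS27L encodes a relative of ribosomal protein S27 and is a direct p53 target (GRCh37 chr15:63418071-63450220). It stood at 12.6 and 17.1 CPM in the siRNA control and at 32.3 and 40.4 CPM in the knockdown (log2 fold change 1.30, SE 0.19), with both knockdown libraries above both controls. Its paralogue RPS27, a component of the small ribosomal subunit, was not called (0.21, SE 0.13, edgeR adjusted p = 0.43). Reads that the 2 genes or their pseudogene copies share could be split by the counting, so the level of RPS27L is uncertain to that degree.

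Among the members that feed back on p53, 2 of 4 fell and none rose, beside 2.27% and 1.13% of all genes. The role groups were chosen with earlier results of these data known, so counts by role are a description only. MDM2, the ligase that marks p53 for degradation (GRCh37 chr12:69201957-69239324), stood at 26.7 and 22.1 CPM in the siRNA control and at 12.7 and 13.5 CPM after ETS1 siRNA. Both knockdown libraries lay below both controls, and the log2 fold change was -0.90 (SE 0.16, edgeR adjusted p = 0.039). CCNG1, cyclin G1, which brings a phosphatase to MDM2 (GRCh37 chr5:162864575-162873157), went from 32.4 and 28.7 CPM to 14.7 and 17.4 CPM, again without overlap (-0.93, SE 0.15, edgeR adjusted p = 0.033). MDM4 (-0.23, SE 0.16, edgeR adjusted p = 0.48) and PPM1D, a phosphatase that damps the damage response (-0.24, SE 0.18, edgeR adjusted p = 0.52), were not called.

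Among the 7 members listed under cell death, 2 fell, beside 2.27% of all genes. Both are death receptors of the tumour necrosis factor receptor family. FAS, the receptor of FAS ligand (GRCh37 chr10:90750414-90775542), stood at 28.5 and 26.1 CPM in the siRNA control and at 15 and 12.9 CPM after ETS1 siRNA (-0.97, SE 0.15, edgeR adjusted p = 0.03). TNFRSF10A, which binds TRAIL (GRCh37 chr8:23047965-23082615), went from 31.2 and 28.8 CPM to 20 and 17.7 CPM (-0.67, SE 0.14, edgeR adjusted p = 0.074). For both receptors the 2 knockdown libraries lay below the 2 controls. The second TRAIL receptor, TNFRSF10B, was not called (0.05, SE 0.13, edgeR adjusted p = 0.88).

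DDB2 binds ultraviolet damage in DNA and starts nucleotide excision repair (GRCh37 chr11:47236016-47260768). It was the 1 member of 6 in the group of DNA repair and nucleotide supply that was called, beside 3.41% of all genes. DDB2 rose from 30.4 and 33.6 CPM to 53.8 and 48.3 CPM (0.68, SE 0.13, edgeR adjusted p = 0.05). ZMAT3, an RNA binding protein (GRCh37 chr3:178677909-178790003), fell from 23 and 20.1 CPM to 13.3 and 12.8 CPM (-0.72, SE 0.15, edgeR adjusted p = 0.069). For DDB2 both knockdown libraries lay above both controls, and for ZMAT3 below them. Neither the 6 members of growth and signalling nor the 7 of metabolism and autophagy held an edgeR call. At an unadjusted p under 0.05 they had 2 and 0, and DESeq2 called 1 and 0, the 1 being PHLDA3, which competes with AKT for membrane lipid (0.47, SE 0.12, edgeR adjusted p = 0.11). The 25 members that were not called ran from -0.50 (FBXW7) to 0.51 (TP53INP1). Without siRNA control replicate 1 none of the members was called (edgeR adjusted p from 0.15 to 0.54), although 8 members still had an unadjusted p under 0.05, and 25 of the 31 kept the direction they had with all 4 libraries. Without ETS1 siRNA replicate 2 the calls of ZMAT3 and TNFRSF10A were lost (edgeR adjusted p = 0.13 for each), and without ETS1 siRNA replicate 1 the higher calls numbered 3.

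**Figure D1:**
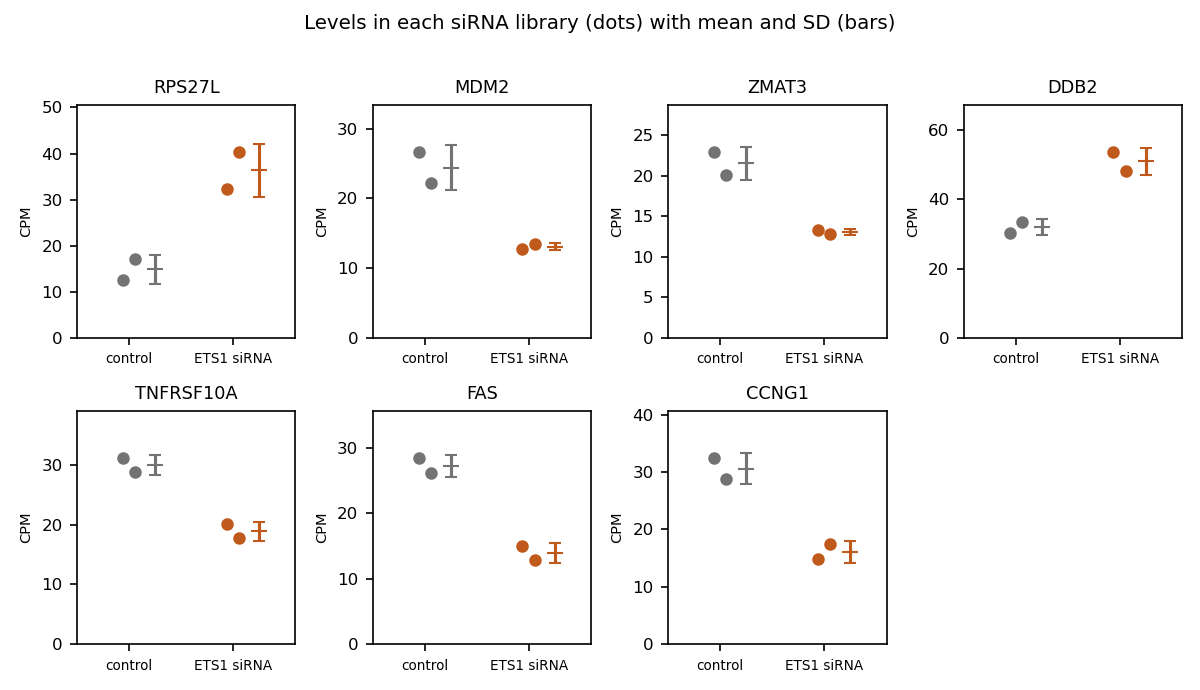
The level in CPM (vertical axis, from 0) of RPS27L and of the 6 members called after siRNA, with 1 dot for each siRNA library and a bar for mean and SD (n = 2 per group). RPS27L and DDB2 lie higher in both ETS1 siRNA libraries, and MDM2, ZMAT3, TNFRSF10A, FAS and CCNG1 lie lower.

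After ETS1 shRNA, nearly every p53 target differed from shCON, but in both directions: 18 rose and 12 fell. The largest rises were in TP53INP1, TP53I3, SESN1, PERP, ZMAT3 and GADD45A, and the largest falls were in GDF15, PLK3, SESN2, MDM4, DRAM1 and FAS. Of 32 members 31 could be tested, SPATA18 having only 4 to 7 counts per library. The 30 calls among them stand beside 60.6% of all 16481 genes tested, with 18 members higher beside 29.7% of genes and 12 lower beside 30.9%. The median over the members was 0.334, against 0.000664 over all genes. GDF15 entered the test through its control libraries only, and without it 29 of 30 members were called, 18 higher and 11 lower. The groups did not overlap for 96.8% of the members and for 76.6% of all genes. The 1 tested member that was not called was MDM2.

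By role, 2 of the 4 feedback members rose and 1 fell after shRNA, beside 29.7% and 30.9% of all genes. MDM2 stood at 80.4 and 79.2 CPM in shCON and at 78.1 and 87.3 CPM in shETS1, so its groups overlapped (0.05, SE 0.08, edgeR adjusted p = 0.59). Its sign turned with scaling by library size alone (-0.07). MDM4 fell from 45.9 and 39.3 CPM to 23.8 and 26.4 CPM (-0.76, SE 0.10, edgeR adjusted p = 3.6e-06), without overlap. CCNG1 rose from 69.1 and 70.3 CPM to 93.9 and 89.4 CPM (0.39, SE 0.07, edgeR adjusted p = 2e-04). PPM1D also rose (0.43, SE 0.11, edgeR adjusted p = 0.0033).

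Of the 6 members of DNA repair and nucleotide supply, 3 rose and 3 fell, beside 29.7% and 30.9% of all genes. GADD45A, a stress sensor that acts in growth arrest and repair, went from 19.3 and 20.3 CPM to 33.2 and 35.4 CPM (0.79, SE 0.09, edgeR adjusted p = 1.3e-06), with both shETS1 libraries above both controls. RRM2B, a subunit of ribonucleotide reductase that supplies nucleotides for repair, rose by 0.51 (SE 0.08). XPC, which recognises damage in nucleotide excision repair, rose by 0.30 (SE 0.11, edgeR adjusted p = 0.033). DDB2, its partner in that pathway, fell from 50.9 and 51.6 CPM to 38 and 35.6 CPM (-0.48, SE 0.08, edgeR adjusted p = 8.2e-05). POLH, a polymerase that copies past ultraviolet lesions, fell by 0.41 on the log2 scale (SE 0.09). AEN, a nuclease active in apoptosis, was listed here under repair and not under cell death. Its fall was just inside the threshold (-0.18, SE 0.09, edgeR adjusted p = 0.098), and its call was lost under 11 of 15 alternatives. The call of XPC was lost with DESeq2 (adjusted p = 0.13), with scaling by library size alone, and without shCON replicate 1 or shETS1 replicate 1.

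All 7 members listed under cell death were called, 3 higher and 4 lower. Of all genes tested, 60.6% were called, 29.7% higher and 30.9% lower. PERP, which has a part in apoptosis and in the desmosomes of stratified epithelium, went from 885 and 934 CPM to 2353 and 2220 CPM (1.33, SE 0.09, edgeR adjusted p = 1.2e-09). Per kilobase of exon it was also the most abundant member in shCON, at 217 CPM per kb, against 55.7 for EI24 and 53.6 for PLK2. The squamous keratins and DSG3 were higher in shETS1 as well, while TP63, the remaining gene of that marker list, fell (-0.40, SE 0.09). The summed level of the list was 25800 and 25400 CPM in shETS1 against 14900 and 15100 CPM in shCON. The part of these markers in the PERP value was not tested. NINJ1, a membrane protein that ruptures dying cells, rose by 0.66 (SE 0.10), and TRIAP1, an inhibitor of apoptosis, by 0.27 (SE 0.09, edgeR adjusted p = 0.021). The TRIAP1 call was lost with scaling by library size alone and without shCON replicate 1. All 3 death receptors fell. FAS went from 22.2 and 21.7 CPM to 16.5 and 12.6 CPM (-0.60, SE 0.12, edgeR adjusted p = 4e-04). TNFRSF10B went from 67.9 and 69.9 CPM to 47.5 and 45.7 CPM (-0.56, SE 0.08, edgeR adjusted p = 7.7e-06). TNFRSF10A went from 24.8 and 25.8 CPM to 20 and 17 CPM (-0.46, SE 0.10, edgeR adjusted p = 0.0012). For each receptor both shETS1 libraries lay below both controls. EI24, a protein of the endoplasmic reticulum, fell by 0.24 on the log2 scale (SE 0.07).

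Of the 6 members of growth and signalling, 4 rose and 2 fell (PLK3 and GDF15), beside 29.7% and 30.9% of all genes. PLK3, a polo-like kinase of the stress response, stood at 15.1 and 12.8 CPM in shCON and at 3.49 and 4.88 CPM in shETS1 (-1.73, SE 0.16, edgeR adjusted p = 6.8e-08). Its relative PLK2 rose by 0.48 (SE 0.07), so the 2 kinases differed in direction. GDF15, a secreted stress cytokine, was counted 38 and 31 times in shCON and 3 and 1 times in shETS1. It entered the test through its control libraries only, so its fall is given as a description. The ratio of control to knockdown level was 16.3, with a 95% interval of 6.07 to 61.4 that covers counting error only. BTG2, an antiproliferative factor (0.66, SE 0.08), FBXW7, a ubiquitin ligase subunit that marks cyclin E and MYC (0.64, SE 0.08), and PHLDA3 (0.33, SE 0.08) rose.

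Of the members of metabolism and autophagy, 4 of the 6 tested rose and 2 fell, beside 29.7% and 30.9% of all genes. SESN1, a sestrin that restrains the growth kinase mTORC1, went from 15 and 19 CPM to 46.4 and 44.8 CPM (1.42, SE 0.11, edgeR adjusted p = 4.8e-09). Its relative SESN2, which has the same role and is also a target of the amino acid stress pathway, went from 16.9 and 15.7 CPM to 8.89 and 8.4 CPM (-0.91, SE 0.12, edgeR adjusted p = 4e-06). The 2 sestrins thus moved in opposite directions, each without overlap between groups. TP53INP1, a promoter of autophagy and of p53 activity, rose from 7 and 4.74 CPM to 16.1 and 21.4 CPM (1.68, SE 0.17, edgeR adjusted p = 1.8e-07). TP53I3, a quinone reductase, rose from 4.26 and 4.28 CPM to 11.9 and 12.5 CPM (1.51, SE 0.14, edgeR adjusted p = 6e-08). Both low-level genes lay higher in each shETS1 library than in either control. DRAM1, a lysosomal protein of autophagy, fell from 15.8 and 18 CPM to 11.3 and 10.3 CPM (-0.64, SE 0.12, edgeR adjusted p = 0.00018). FDXR, a mitochondrial reductase, rose by 0.40 (SE 0.09).

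The last 2 members concern RNA and the ribosome, and both rose after shRNA. ZMAT3 went from 27.1 and 23.6 CPM to 48.6 and 61.3 CPM (1.12, SE 0.11, edgeR adjusted p = 1.2e-07). RPS27L went from 25.9 and 32.1 CPM to 40.5 and 37.2 CPM (0.42, SE 0.10, edgeR adjusted p = 0.002), with both shETS1 libraries above both controls. RPS27 rose as well (0.54, SE 0.08, edgeR adjusted p = 3.1e-05). The fibroblast markers DCN and LUM were higher in shETS1 too, carrying that list's sum from 224 and 255 CPM to 2040 and 1930 CPM, while THY1 and PDGFRB stayed under 0.4 CPM in every shRNA library. Their part in the shRNA values was not tested. Structural RNAs took 5.61% and 6.63% of counts in shCON and 12.3% and 9.64% in shETS1, and TMM computed without those genes left the calls at 18 higher and 12 lower.

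**Figure D2:**
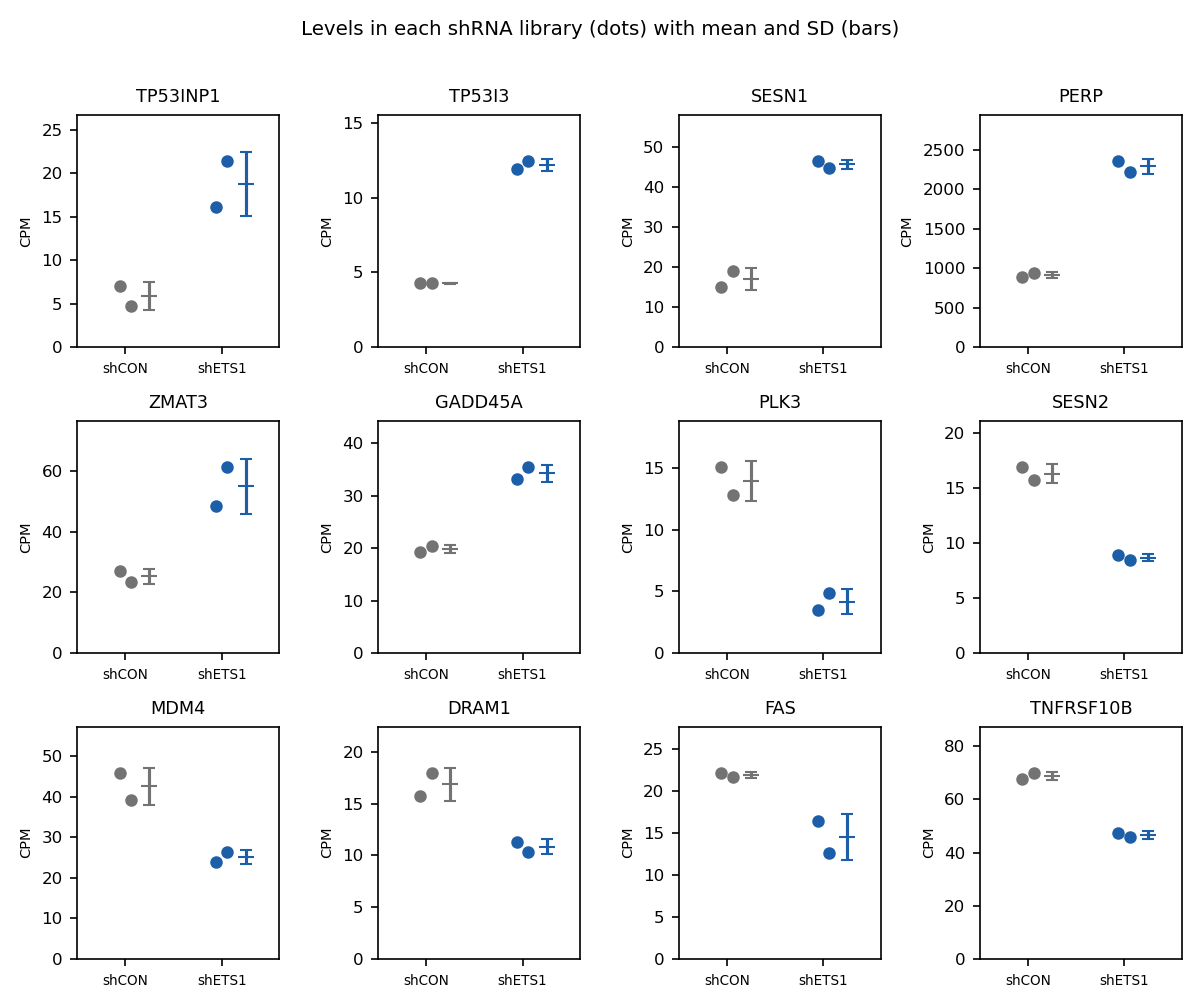
The level in CPM (vertical axes, from 0) of the 6 called members with the largest rises and the 6 with the largest falls after shRNA at a mean of at least 5 CPM, with 1 dot for each library and a bar for mean and SD (n = 2 per group). In each panel the shCON and shETS1 libraries do not overlap, and PERP is on a scale far above that of the others.

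**Figure D3:**
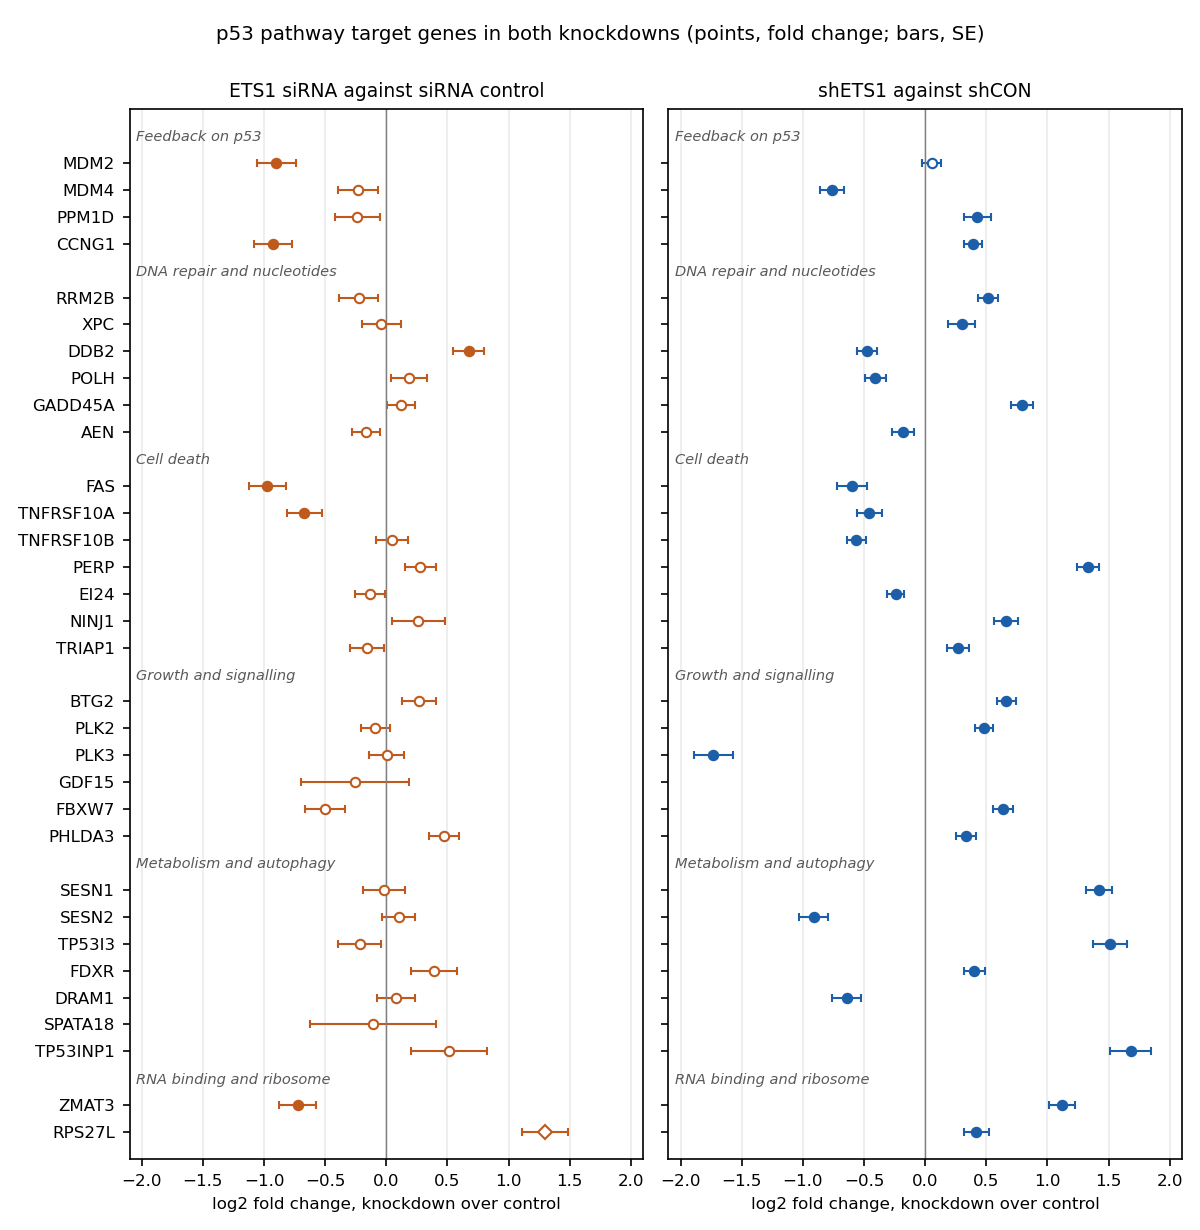
The log2 fold change of each member, knockdown over control (horizontal axis), after siRNA on the left and after shRNA on the right, grouped by role, with SE as bars. Filled points were called (edgeR adjusted p under 0.1), the diamond is RPS27L after siRNA, for which no test is given, and GDF15 and SPATA18 have no point on the right. Most points on the left lie near 0, and those on the right spread to both sides.

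To ask whether the pathway followed in the same way in both knockdowns, the difference between the effects (shRNA effect minus siRNA effect) was tested in 1 edgeR fit of all 8 libraries. The spread between replicates (edgeR common dispersion) was 0.0192 in the siRNA fit, 0.00402 in the shRNA fit and 0.0109 in the joint fit. The joint fit may thus understate the siRNA noise, and the SE and adjusted p of the differences carry that limit. Of 31 members without RPS27L, 21 differed, 13 of them positive and 8 negative. The negative ones include GDF15 (-3.69), which was counted only 3 and 1 times in shETS1 and entered the shRNA test through its controls. Over all 17190 genes tested, 34.8% differed, 15.1% positive and 19.7% negative. The median difference was 0.357 over the members and -0.02 over all genes. ZMAT3 and CCNG1 fell after siRNA and rose after shRNA, with differences of 1.83 (SE 0.20, edgeR adjusted p = 0.00015) and 1.30 (SE 0.16, edgeR adjusted p = 0.00027). DDB2 rose after siRNA and fell after shRNA, a difference of -1.17 (SE 0.14, edgeR adjusted p = 0.00028). MDM2 was called after siRNA only, and the difference was 0.93 (SE 0.17, edgeR adjusted p = 0.0022).

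Other large differences came from members that were called after shRNA and not after siRNA. TP53I3 (1.71, SE 0.19, edgeR adjusted p = 0.00019) and SESN1 (1.43, SE 0.20, edgeR adjusted p = 0.00061) had siRNA values of -0.22 and -0.02. PLK3 (-1.76, SE 0.23, edgeR adjusted p = 0.00043), SESN2 (-1.03, SE 0.17, edgeR adjusted p = 0.0015) and DRAM1 (-0.74, SE 0.19, edgeR adjusted p = 0.016) had siRNA values of 0.00, 0.10 and 0.08. Only FAS and TNFRSF10A were called lower in both knockdowns. Of the 31 members without RPS27L, 0 were called higher in both by edgeR. Over all genes, 1.13% were called higher and 2.27% lower after siRNA, and 29.7% and 30.9% after shRNA. The share called in both was not computed over all genes, so these joint counts are a description only. PHLDA3, with log2 fold changes of 0.47 and 0.33, was the 1 member higher in both by DESeq2, and likewise at an unadjusted p under 0.05 in edgeR. RPS27L, given as values, had 1.30 after siRNA and 0.42 after shRNA. For FAS the difference was 0.36 (edgeR adjusted p = 0.22) and for TNFRSF10A 0.20 (edgeR adjusted p = 0.43), neither of which was called. For RPS27L, whose siRNA value chose the list, the difference was -0.90 (SE 0.23), given with no test. ETS1 itself differed by 1.23 (SE 0.21, edgeR adjusted p = 0.0017), its fall being deeper after siRNA.

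**Figure D4:**
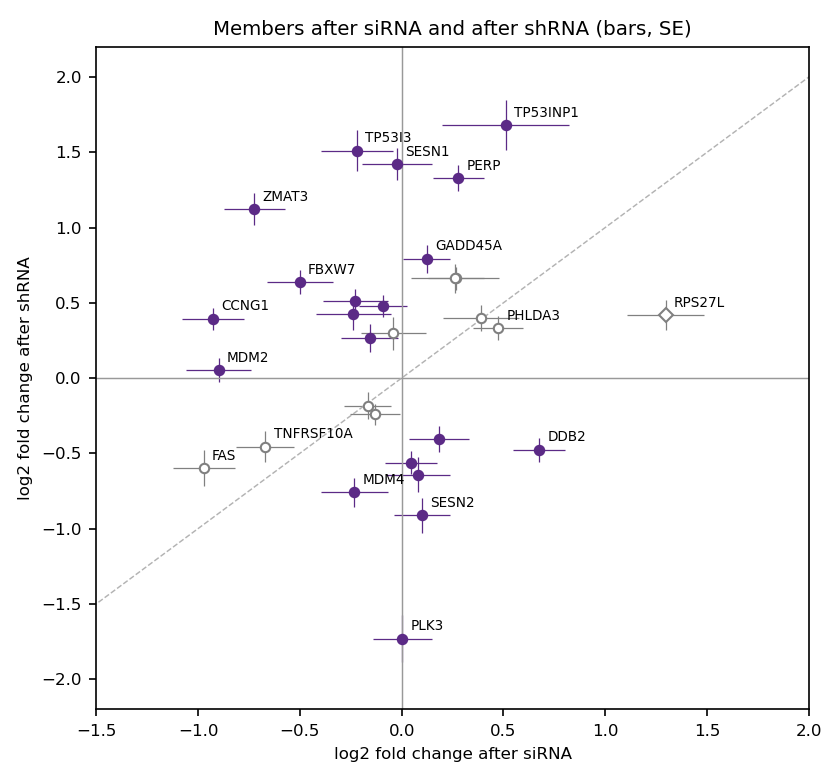
The log2 fold change after siRNA (horizontal axis) against that after shRNA (vertical axis) for each member with a value in both except GDF15, with SE as bars and a dashed line where the 2 are equal. Filled points differed between the knockdowns (edgeR adjusted p under 0.1), and the diamond is RPS27L, given with no test. ZMAT3 and CCNG1 lie upper left, DDB2 lower right, and FAS and TNFRSF10A near the line at lower left.

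The relatives p63 and p73 and the best known target, p21, were read beside the members. TP63 stood at 570 and 580.1 CPM in the siRNA control and at 592 and 479 CPM after ETS1 siRNA, with overlap (-0.10, SE 0.14, edgeR adjusted p = 0.73). It fell after shRNA, from 632 and 612 CPM to 424 and 519 CPM (-0.40, SE 0.09, edgeR adjusted p = 0.0013). TP73 rose from 5.09 and 7.98 CPM to 13.3 and 11.5 CPM after siRNA, just inside the threshold (0.93, SE 0.23, edgeR adjusted p = 0.099). That TP73 call was lost without siRNA control replicate 1 (adjusted p = 0.66) and without ETS1 siRNA replicate 2 (adjusted p = 0.12). After shRNA TP73 was not called (-0.20, SE 0.13, edgeR adjusted p = 0.2), and its difference between the knockdowns was -1.16 (SE 0.27, edgeR adjusted p = 0.0093). CDKN1A, the cell cycle inhibitor p21, stood at 161 and 167 CPM in the siRNA control and at 213.7 and 213.8 CPM after ETS1 siRNA, where edgeR did not call it (0.38, SE 0.12, adjusted p = 0.17) and DESeq2 did (adjusted p = 0.098). It rose after shRNA, from 57.7 and 51.6 CPM to 73.5 and 63.7 CPM (0.33, SE 0.09, edgeR adjusted p = 0.0041).

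**Figure D5:**
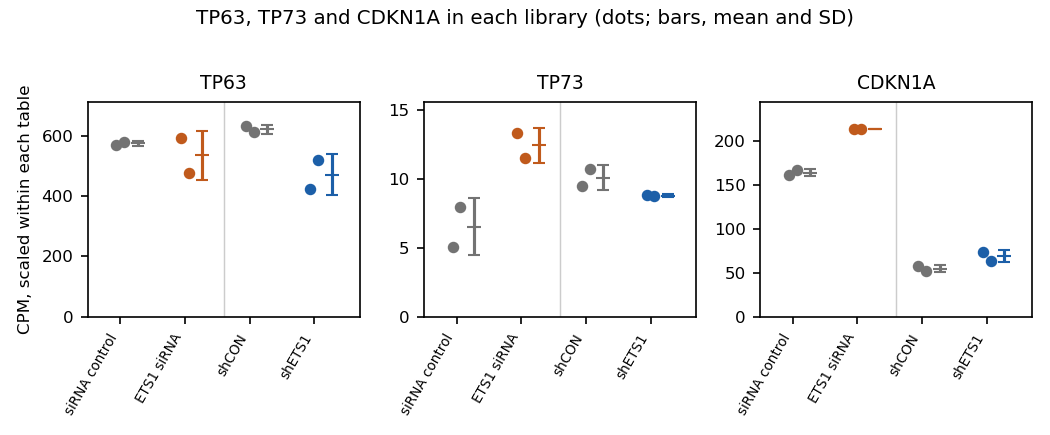
The level in CPM (vertical axes, from 0) of TP63, TP73 and CDKN1A in each of the 8 libraries, with 1 dot for each library and a bar for mean and SD (n = 2 per group). CPM were scaled within each experiment, so panels are read to the left and right of the grey line apart. TP63 overlaps between control and knockdown on the siRNA side only, and CDKN1A on neither side.

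Of 13 genes, the p53 relatives and upstream regulators, TP73 alone was called after siRNA (7.69%, beside 3.41% of all genes). After shRNA 9 were called (69.2%, beside 60.6% of all genes), 3 higher and 6 lower (23.1% and 46.2%, beside 29.7% and 30.9%). RPL11 (0.51, SE 0.09), RPL5 (0.44, SE 0.09), ribosomal proteins that can hold MDM2 in check, and the damage kinase ATM (0.49, SE 0.07) rose. USP7, which removes ubiquitin from p53 and MDM2 (-0.99, SE 0.08), the checkpoint kinase CHEK1 (-0.93, SE 0.08) and the acetyltransferase EP300 (-0.85, SE 0.17) had the largest falls.

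A further list of 55 p53 targets outside the 32 gave 1 call after siRNA among 53 tested, RAP2B, a small GTPase, which rose (0.84, SE 0.15, edgeR adjusted p = 0.038, or 0.32 without siRNA control replicate 1), while 21 had an unadjusted p under 0.05. The 1 call was 1.89% of the list, beside 3.41% of all genes. Over all 14742 genes tested after siRNA, 2721 had an unadjusted p under 0.05. After siRNA DESeq2 called 7 of the 53 tested from the list, 6 higher and 1 lower, and 797 of the 14742 genes. After shRNA 40 of 52 tested were called, 21 higher and 19 lower. That was 76.9% of the list, beside 60.6% of all genes, with 40.4% higher and 36.5% lower beside 29.7% and 30.9%. The list's median was -0.00867, against 0.000664 over all genes. The largest rises at a mean of at least 5 CPM were BTG1, an antiproliferative factor (1.35, SE 0.08), PGPEP1, a peptidase (1.26, SE 0.13), TNFRSF10D, a decoy TRAIL receptor (1.14, SE 0.09), and HHAT, an acyltransferase of hedgehog (1.08, SE 0.13). Among the falls were CMBL, a hydrolase (-1.58, SE 0.12), KITLG, the ligand of KIT (-1.15, SE 0.08), and PMAIP1, which encodes the death factor NOXA (-1.14, SE 0.08).

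Some members answer to other stresses as well, and 13 genes of the amino acid, unfolded protein and oxidative stress responses were read beside them. After siRNA 1 of the 13 was called, HMOX1, haem oxygenase, which fell (-1.05, SE 0.18, edgeR adjusted p = 0.038, or 0.18 without siRNA control replicate 1). That was 7.69% of the list, beside 3.41% of all genes. After shRNA 10 were called (76.9%, beside 60.6% of all genes), 9 lower (69.2%, beside 30.9%) and 1 higher (7.69%, beside 29.7%). The largest falls were in ASNS, asparagine synthetase, from 78.1 and 81.2 CPM to 13.6 and 15.9 CPM (-2.43, SE 0.09), in CHAC1, a glutathione degrading enzyme (-2.34, SE 0.19), and in TRIB3, a pseudokinase (-2.24, SE 0.10). SQSTM1, an autophagy receptor, rose (0.29, SE 0.08). These falls moved with those of SESN2 and GDF15, and their part in those values was not tested.

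The exons of 6 members overlap a gene on the other strand in GENCODE models of GRCh37. These are MDM2 with the gene of carboxypeptidase M, TP53INP1 with NDUFAF6, TNFRSF10B with RHOBTB2, FAS with ACTA2, TP53I3 with FAM228B and POLH with GTPBP2. TP73 overlaps TP73-AS1 in the same way, as do ATM with C11orf65 and Y_RNA, SQSTM1 with MGAT4B and THY1 with USP2-AS1. On the same strand, where counting by strand would not part them, CHEK1 overlaps STT3A and RPL5 overlaps SNORD21. Whether reads were counted by strand is not given in the sources used here, so reads of such neighbours may be shared or lost in these values.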

How the data were processed

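RNA of 8 SCC25 libraries (4 groups of 2) had been sequenced as 50 base single reads. Per the labels and methods, the authors aligned reads to GRCh37 with TopHat2 2.1.1 and Bowtie2 2.2.6, counted them with featureCounts 1.5.0 and deposited raw counts per gene symbol; strand and multi-mapping settings are not given in the sources used here. From these counts, each experiment was fitted with edgeR 4.0.16 (limma 3.58.1, R 4.3.3): filterByExpr, TMM, quasi-likelihood F-test, Benjamini-Hochberg adjustment over all genes tested, called under 0.1, the study's rate. The difference of effects was fitted over all 8 libraries. DESeq2 1.42.0, other scalings, filters of at least 10 counts or 1 TPM, a threshold of 0.05, replicate blocks and leaving out each library were alternatives. The script was tested on simulated data. Depth was 15954616 to 25953213 counts.

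The members and gene lists were chosen with earlier results of these data known. Named genes were RPS27L and MDM2, all members called after siRNA, after shRNA up to 6 rises and 6 falls at a mean of at least 5 CPM, members called in opposite directions, up to 4 differences each way, and up to 4 or 3 genes each way from the lists outside the members. Other members are given by value, and 2 genes of the outside lists are not reported here. Labels do not say that shRNA replicates came from separate cultures, so p-values measure only the spread between these samples, which may be technical. Replicates differed beyond sampling noise (chi-square per degree of freedom 6.23 to 23.2), so none was treated as a repeat. Older symbols served for PIDD1, SUSD6 and TIGAR. Gene positions came from GENCODE models of GRCh37 and sequences from RefSeq (GRCh38.p14), which were not mixed.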

Additional observations from a re-analysis of the deposited data

Results flagged for a closer look

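The effect of the knockdown differed between siRNA and shRNA for 20 members by the edgeR test of the difference itself (shRNA effect minus siRNA effect on the log2 scale, adjusted p under 0.1). The difference was positive for ZMAT3 (1.83), TP53I3 (1.71), SESN1 (1.43), CCNG1 (1.30), TP53INP1 (1.15), FBXW7 (1.12), PERP (1.03), MDM2 (0.93), RRM2B (0.72), GADD45A (0.65), PPM1D (0.64), PLK2 (0.55) and TRIAP1 (0.41). It was negative for PLK3 (-1.76), DDB2 (-1.17), SESN2 (-1.03), DRAM1 (-0.74), TNFRSF10B (-0.63), POLH (-0.61) and MDM4 (-0.55). The adjusted p of these tests ran from 0.00015 (ZMAT3) to 0.082 (TRIAP1). The call was lost under 12 of 18 alternatives for TRIAP1, 6 for TP53INP1, 5 for MDM4 and 4 for PPM1D. For TRIAP1 these held every library left out but ETS1 siRNA replicate 2. For TP53INP1 they held siRNA control replicate 1, ETS1 siRNA replicate 1, shCON replicate 2 and shETS1 replicate 2. For MDM4 they held siRNA control replicate 2, shCON replicate 1 and shETS1 replicate 1, and for PPM1D siRNA control replicate 1, shCON replicate 2 and shETS1 replicate 1. The adjusted p then reached at most 0.38 (TP53INP1). The other 16 kept their calls under all 18. GDF15 also passed the test but is left out, because its shETS1 libraries held at most 3 counts, and RPS27L is left out because its siRNA value chose the list. The siRNA and shRNA experiments differed in delivery, selection, control and library composition at once, so these cannot be told apart.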

How the results depend on the processing

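After siRNA the 1 higher member became 2 with no filter on low counts, with at least 10 counts in every library, with protein-coding genes of at least 1 TPM, with DESeq2 and with all 8 libraries in one fit. The 5 lower became 3 at an adjusted p under 0.05. Same-numbered replicates deviated in opposite ways (correlation -0.566 after siRNA, -0.13 after shRNA), so the numbers do not pair the samples. With the replicate block, 0 higher and 0 lower members and 97 of all genes were called after siRNA, where 8 members had an unadjusted p under 0.05. Blocks with crossed numbers, chosen after seeing the data, gave 4 higher and 6 lower members and 3238 genes. Leaving out 1 library gave 0 to 3 higher and 0 to 6 lower members. Over all genes, 502 calls became 1466 with no filter, 791 with the TPM filter, 797 with DESeq2, 190 at 0.05 and 2166 with all 8 libraries. They ranged from 72 (without siRNA control replicate 1) to 1478 (without ETS1 siRNA replicate 1). The members' siRNA median moved to -0.0653 with 10 counts and -0.0665 with the TPM filter, and ranged from -0.111 to -0.0279 on leaving out 1 library. Counts of members called after shRNA (16 to 18 higher, 10 to 12 lower) and of differences (10 to 14 higher, 7 to 8 lower) stayed within 1.5 times under every alternative run. Scaling by library size alone shifted the median of all genes after shRNA to -0.125 and the members' medians to 0.207 (shRNA) and 0.269 (difference). The latter was 0.411 with 10 counts and 0.415 with the TPM filter. Leaving out 1 library gave 0.265 to 0.391 for the shRNA median and 0.225 to 0.461 for the difference. Signs turned for uncalled genes. On leaving out 1 library, TP63 ranged from -0.26 to 0.0371 after siRNA and MDM2 from -0.0323 to 0.125 after shRNA. MDM2 after shRNA was -0.0719 by library size alone. The cause was not tested.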
